A study of Mus musculus with 2 samples.

Results

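The cholesterol genes described here are 31 genes of 43346 in the deposited gene tables. They are a list of names taken by their known roles, chosen with earlier results of these data known. They comprise 18 genes of cholesterol synthesis, 5 regulators of the pathway, and 8 genes of cholesterol uptake, transport, export and turnover. All 31 were found in the tables by their Ensembl identifiers. Total RNA was measured in forebrain of newborn mice of the strain B6NTac;B6NCrl/Lap, aged 0 days, males and females pooled, all described as healthy, with no allele or agent named. There was 1 group of 2 libraries, made from separate isolates of tissue, and no other tissue, age or treatment. Replicate 1 came from 15 mice, and replicate 2 from a pool whose size is not stated. Both carry the same donor identifier, and whether they share animals is not stated, so the spread between them may be technical. RNA longer than 200 nt was depleted of ribosomal RNA, supplied with spike-ins and sequenced as stranded read pairs.

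Cells make cholesterol from acetyl-CoA. The mevalonate steps build isoprenoid units, farnesyl diphosphate among them, which also serve other products, and the sterol steps turn farnesyl diphosphate into squalene, lanosterol and finally cholesterol. The transcription factors encoded by Srebf1 and Srebf2 are held in the endoplasmic reticulum by the proteins of Scap, Insig1 and Insig2 when sterol is plentiful, and are released to raise transcription of the pathway when it is scarce. The brain makes nearly all of its own cholesterol behind the blood-brain barrier. In mature brain, astrocytes pass cholesterol to neurons on particles that carry apolipoprotein E, and neurons dispose of an excess by converting it to a hydroxylated form that leaves the brain.

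The letters known from the regulation of this pathway were looked for next to the start sites of the members. RefSeq promoter windows of 300 bases, 250 before and 50 after each start, were held for 26 of the 31 members (36 windows, build GRCm38.p6). No window was held for Fdps, Fdft1, Sqle, Stard4 and Npc1, so these members were not searched. Both strands were searched for TCACCCCAC and for the looser TCACNCCAC, which includes it, both forms of the sterol regulatory element. CACGTG, a palindromic E-box that factors of this family also bind, was searched as well. The 5 stretches shown here are the 200 bases from 250 to 51 before the RefSeq start, read 5′ to 3′ along the gene, of members whose match falls there, with the matched letters in capitals. They lie at chr13:119690101-119690300 (plus strand) for Hmgcs1, chr1:169969256-169969455 (minus strand) for Hsd17b7, chr9:42264351-42264550 (minus strand) for Sc5d, chr5:28071162-28071361 (plus strand) for Insig1 and chr4:53159946-53160145 (minus strand) for Abca1.
Hmgcs1: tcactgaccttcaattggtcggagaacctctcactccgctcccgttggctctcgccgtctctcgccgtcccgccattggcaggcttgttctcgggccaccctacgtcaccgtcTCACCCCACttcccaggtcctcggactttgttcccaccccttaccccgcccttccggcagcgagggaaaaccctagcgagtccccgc
Hsd17b7: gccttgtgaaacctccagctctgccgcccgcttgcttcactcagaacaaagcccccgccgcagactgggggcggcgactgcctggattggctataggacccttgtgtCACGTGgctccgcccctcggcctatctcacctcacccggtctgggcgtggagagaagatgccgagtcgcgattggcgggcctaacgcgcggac
Sc5d: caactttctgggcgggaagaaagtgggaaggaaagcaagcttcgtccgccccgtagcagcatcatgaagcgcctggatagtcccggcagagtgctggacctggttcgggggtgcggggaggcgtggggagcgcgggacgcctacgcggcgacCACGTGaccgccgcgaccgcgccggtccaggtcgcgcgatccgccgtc
Insig1: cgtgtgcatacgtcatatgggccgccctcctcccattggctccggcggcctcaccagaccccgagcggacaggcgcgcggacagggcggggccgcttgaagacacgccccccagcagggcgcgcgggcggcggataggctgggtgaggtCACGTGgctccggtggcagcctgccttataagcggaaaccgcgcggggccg
Abca1: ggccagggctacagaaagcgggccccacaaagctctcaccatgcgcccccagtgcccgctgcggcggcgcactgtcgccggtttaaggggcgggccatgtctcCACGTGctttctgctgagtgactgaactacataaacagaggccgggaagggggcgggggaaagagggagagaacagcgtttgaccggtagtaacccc

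Hmgcs1 was the 1 member of 26 with TCACCCCAC, 137 bases before the start, and it was also the 1 member with TCACNCCAC. Of all 32851 promoter windows of this length, 0.551% held the first form and 1.24% the second. The E-box letters lay 143 bases before the start of Hsd17b7, 98 before Sc5d and 147 before Abca1, and in Insig1 at the place the capitals show. They were also in windows of Dhcr7 and Scap, so 6 of 26 members and 7 of 36 windows (19.4%) held them, against 7.15% of all windows. The windows of Scap with the letters overlap and share a single site, counted in each. These members span the roles, with 3 of synthesis, 2 regulators and 1 exporter. Transcripts that start within 50 bases of the RefSeq start made up 100% of the TPM of Insig1 and of Abca1 in both libraries, 99.8 and 100% of Sc5d, and 81.6 and 97.8% of Hsd17b7. The share was 0% for the Dhcr7 window with the letters, and of the Scap windows it was 0% for the first and 100% for the second. The quantified Hmgcs1 transcript starts further away, at position 119690446 against 119690351 in RefSeq. A match is a description of letters, and factor binding was not measured.

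The libraries held 62516003 and 65912060 expected counts, of which the members took 198778 (0.318%, 95% Wilson interval 0.317 to 0.319%) and 214556 (0.326%, 0.324 to 0.327%). These intervals cover counting error only. Protein-coding genes made up 13.5% of TPM in replicate 1 and 22.0% in replicate 2, so levels are given as coding TPM, which is TPM (a transcript level per length, scaled to a fixed total) rescaled to sum to 1000000 over protein-coding genes. Over the 15186 protein-coding genes averaging 10 counts or more, the median was 21.0 and 23.4 coding TPM in replicates 1 and 2. The forebrain label was checked on 6 forebrain markers, all above that median in both libraries, and on 4 Hox genes, which summed to 0.222 and 0.0908 coding TPM. In bulk tissue, fewer cells of a type and less RNA per cell cannot be told apart.

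The genes analysed here of the route from acetyl-CoA to cholesterol were expressed in newborn forebrain, and the mevalonate steps had the highest list median. Fdps, Hmgcs1 and Acat2 stood above every sterol step, while the other mevalonate genes lay within the range of the sterol steps. All 31 members passed the filter of 10 counts. Of the 31, 25 were above the protein-coding median in both libraries, among them 16 of 18 synthesis genes, 4 of 5 regulators and 5 of 8 uptake, export and turnover genes. Of all 15186 protein-coding genes past the filter, 7236 were. The median of the 31 was 73.2 coding TPM in replicate 1 and 68.0 in replicate 2.

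**Figure D1:**
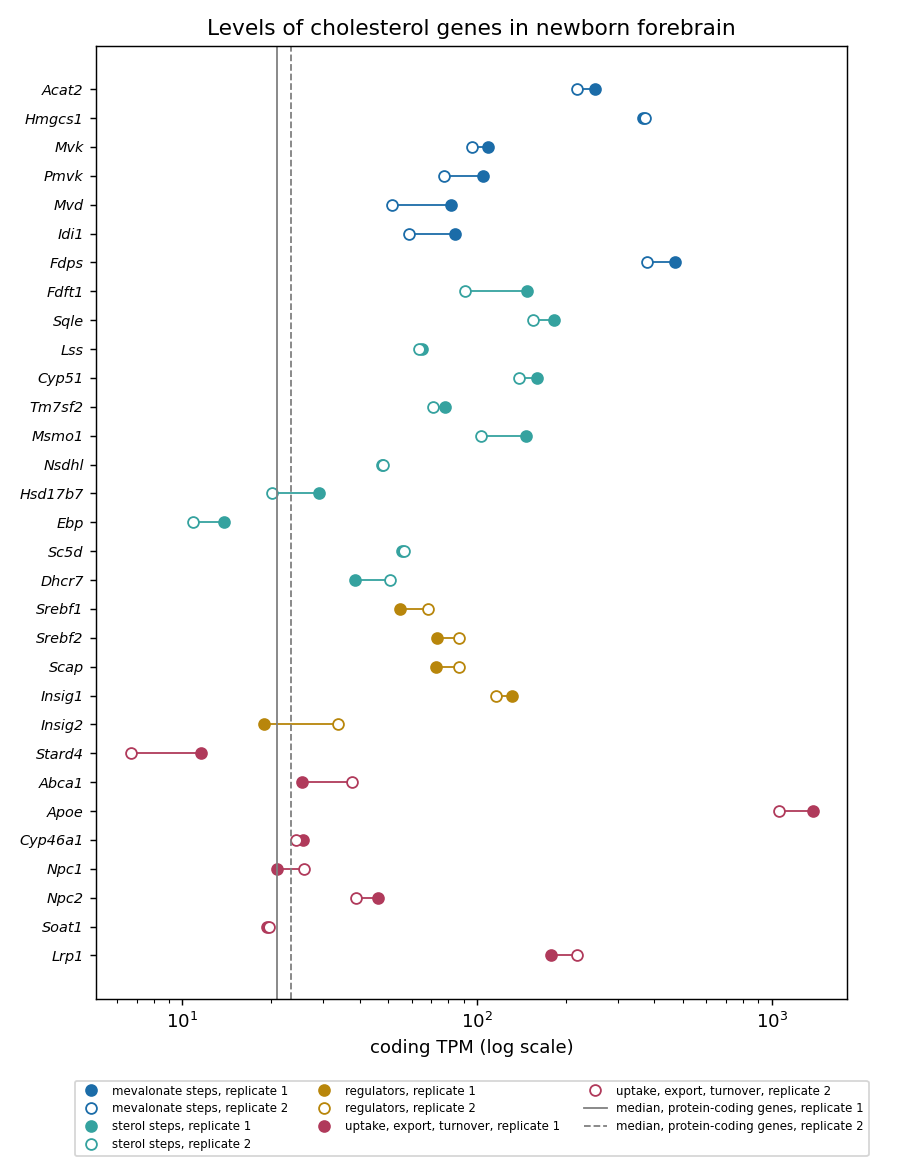
Level of each of the 31 members in coding TPM (horizontal log axis), filled circles for replicate 1 and open circles for replicate 2, coloured by role, with the protein-coding medians of 21.0 and 23.4 as vertical lines. Apoe lies far to the right of the others at 1379.7 and 1060.2, and Ebp, Stard4 and Soat1 lie left of both lines.

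All 7 genes of the mevalonate steps were above the protein-coding median in both libraries, with list medians of 109 and 95.8 coding TPM. Acat2, the cytosolic thiolase that joins acetyl units at the entry of the route, was at 252 and 219 coding TPM. Hmgcs1, which makes HMG-CoA and whose promoter letters are shown above, was at 365 and 372 (368 ± 4.79, SD, n = 2). It lies on chromosome 13 from 119690379 to 119708260 on the plus strand. The enzyme that reduces HMG-CoA is not analysed here. The kinases and the decarboxylase that follow were lower: Mvk was at 109 and 95.8, Pmvk at 104 and 77.0, and Mvd at 81.4 and 51.4 coding TPM. Idi1, the isomerase of the isoprenoid units, was at 84.4 and 58.8. Fdps, which condenses these units into farnesyl diphosphate, was the second highest of the 31 members at 468 and 377 coding TPM (422 ± 64.6, SD, n = 2). Its mean differed from that of Hmgcs1 by less than the SD of Fdps. Fdps lies on chromosome 3 from 89093588 to 89101959 on the minus strand.

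The 11 genes of the sterol steps had medians of 65.1 and 63.7 coding TPM, and 9 of them were above the protein-coding median in both libraries. Fdft1, squalene synthase and the first enzyme committed to sterols, was at 147 and 91.1 coding TPM. Sqle, the squalene epoxidase, was at 182 and 155, the highest of the sterol steps. Lss, which closes the ring system to lanosterol, was at 65.1 and 63.7, close together in the libraries. The enzymes that process lanosterol followed: Cyp51, the demethylase, was at 159 and 139, Tm7sf2, a sterol reductase, at 77.7 and 70.7, and Msmo1, the methylsterol oxidase, at 147 and 103. Nsdhl, a sterol dehydrogenase of the same complex, was at 47.6 and 48.0, and its partner Hsd17b7 at 29.1 and 20.1 coding TPM. Hsd17b7 was thus above the median of protein-coding genes in replicate 1 and below it in replicate 2. Ebp, the sterol isomerase, was the lowest synthesis gene at 13.9 and 10.9 coding TPM and lay below the median in both. Sc5d, the sterol desaturase, was at 55.8 and 56.7, and Dhcr7, a reductase of the last steps, at 38.6 and 50.8. The range of the means was 12.4 to 169 over the sterol steps and 66.4 to 422 over the mevalonate steps, so the ranges overlapped. On the log2 scale the mevalonate median exceeded the sterol median by 0.74 in replicate 1 and 0.59 in replicate 2 (0.67 ± 0.11, SD, n = 2).

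The regulators were expressed at levels like those of the sterol steps, with medians of 72.3 and 86.7 coding TPM. Srebf2, the factor known mainly for cholesterol genes, was at 73.2 and 86.7, and Srebf1, known more for fatty acid genes, at 54.6 and 68.0. Scap, the escort that carries both factors out of the endoplasmic reticulum, was at 72.3 and 86.8. The means of Scap (79.5 ± 10.2, SD, n = 2) and Srebf2 (79.9 ± 9.54) differed by less than their spread. Insig1, the anchor whose own transcription the pathway raises, was the highest regulator at 132 and 116 coding TPM, and Insig2, its relative, the lowest at 19.0 and 33.9. Insig1 was the higher of the pair in both libraries.

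Among the genes of uptake, export and turnover, Apoe stood far above the other 7. Apoe, the apolipoprotein of brain lipid particles, was at 1379.7 and 1060.2 coding TPM (1219.9 ± 226, SD, n = 2), the highest of the 31 members and above 99.6 and 99.4% of protein-coding genes. It lies on chromosome 7 from 19696109 to 19699188 on the minus strand. Lrp1, a large receptor that takes up these particles and many other ligands, was at 178 and 219. Abca1, the exporter that loads cholesterol onto apolipoproteins, was at 25.5 and 37.7. Npc2 and Npc1, which hand cholesterol out of the lysosome in turn, were at 46.3 and 38.8 and at 20.9 and 26.0. Soat1, which esterifies cholesterol for storage, was at 19.4 and 19.7, below the median in both libraries. Cyp46a1, the neuronal hydroxylase of cholesterol removal, was at 25.7 and 24.3 coding TPM. Stard4, a sterol carrier between membranes, was the lowest of all members at 11.6 and 6.67.

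The synthesis genes were compared with the 8 genes of uptake, export and turnover within each library. The synthesis median was 94.4 and 73.9 coding TPM, against 25.6 and 31.8, which is 3.68-fold higher in replicate 1 and 2.32-fold higher in replicate 2. The difference of the log2 medians was 1.88 and 1.21 (1.55 ± 0.47, SD, n = 2), positive in both libraries. Taken instead as a difference of mean log2 values, it was 0.84 with 0.1 added to each level. The genes within a library are not replicates, so no p is given. Both groups were also chosen with earlier results of these data known. Summed levels lay closer together, at 2428 and 2059 for synthesis against 1707 and 1433, because Apoe alone held 80.8 and 74.0% of the sum of its group. Without Apoe the other 7 summed to 328 and 372 coding TPM.

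Ratios of TPM within a library do not depend on the rescaling, and 6 pairs of related members were compared in this way. Srebf2 over Srebf1 was 1.34 and 1.27, and Insig1 over Insig2 was 6.93 and 3.43. Sqle was above Fdft1, the enzyme just before it, since Fdft1 over Sqle was 0.809 and 0.588. Npc2 over Npc1 was 2.22 and 1.49, and Cyp46a1, of removal, over Soat1, of storage, was 1.32 and 1.23. Abca1 over Apoe was 0.0185 and 0.0356, the most unequal of the pairs. Each ratio lay on the same side of 1 in both libraries. The deposited bounds of TPM put the Cyp46a1 ratio on either side of 1, from 0.963 to 1.66 in replicate 1 and from 0.897 to 1.35 in replicate 2. For the other 5 pairs the bounds stayed on the side of the ratio itself. For Insig1 over Insig2 in replicate 1 they ran from 4.50 to 6.73, below the ratio of the deposited TPM.

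For most members a single transcript held most of the level. Of the 31 members, 9 had a single transcript in the tables and 22 had several. The transcript with the highest mean share of TPM led in both libraries for 21 of the 22, and held over 50% of the gene's TPM on average in 18. Srebf1 was the exception: Srebf1-203 led in replicate 1 (24.9 and 30.8% of TPM in replicates 1 and 2) and Srebf1-207 in replicate 2 (22.1 and 35.2%). The short Srebf1-202, of 516 nt, held 21.7% in replicate 1 from 69.7 counts and was at 0 in replicate 2.

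**Figure D2:**
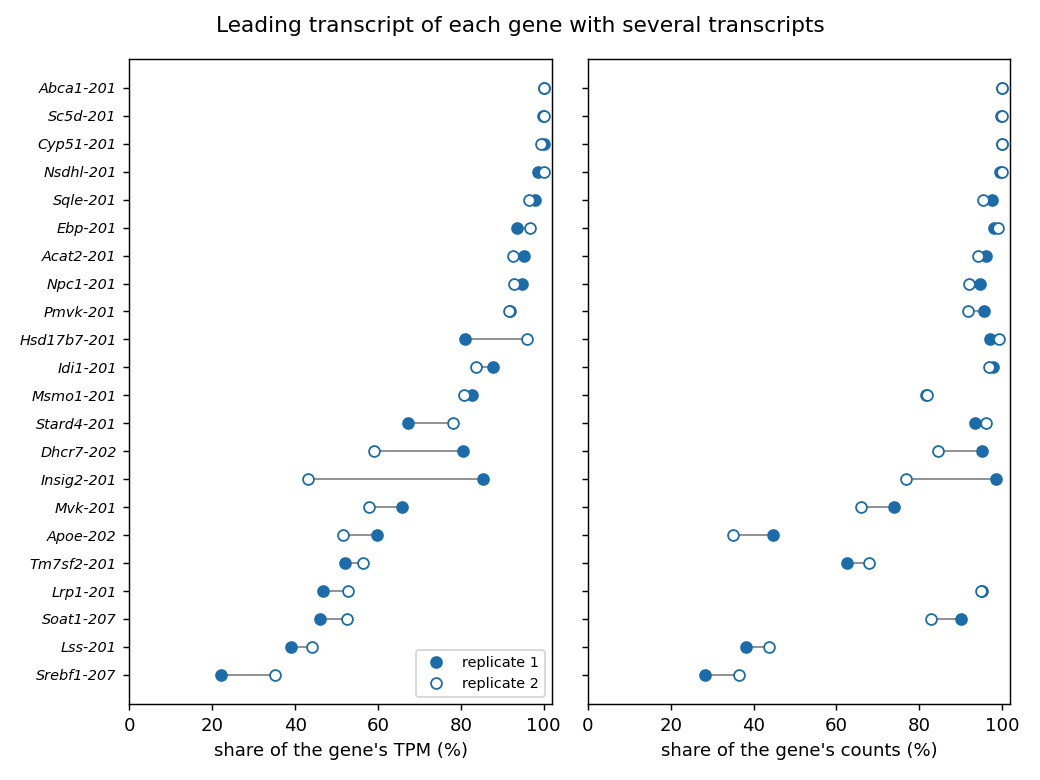
Leading transcript of each of the 22 members with several transcripts, as a share of the gene's TPM (left) and of its counts (right), filled circles for replicate 1 and open circles for replicate 2. Insig2-201 and Dhcr7-202 have the widest gaps between libraries on the left, and Lrp1-201 and Soat1-207 lie near 50% of TPM but above 80% of counts.

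Short transcripts weighed on the level of several members, because TPM divides counts by length. Insig2-201, the long coding form, had 869 and 850 counts, yet its share of Insig2 TPM was 85.3% in replicate 1 and 43.0% in replicate 2. In replicate 2, Insig2-208 took 26.9% from 205 counts and Insig2-212, of 478 nt, took 28.3% from 48.2 counts. The level of Insig2 was 0.84 higher in replicate 2 on the log2 scale of coding TPM, while its scaled counts differed by 0.05. Dhcr7 had the same pattern: Dhcr7-202 held 80.6 and 58.9% of TPM, and Dhcr7-210, a form annotated for nonsense-mediated decay, held 0 and 25.8% from 0 and 142 counts. The log2 difference of Dhcr7 was 0.40 in coding TPM and -0.04 in scaled counts. For both genes the counts over all transcripts differed less between the libraries than the level per length did.

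Noncoding forms took a large share of Apoe and Lrp1. Apoe-202, annotated as a processed transcript, held 59.8 and 51.6% of Apoe TPM. Over transcripts annotated as protein-coding only, Apoe was at 616 and 570 coding TPM, still the highest member. For Lrp1, the long coding Lrp1-201 of 14888 nt held 95.3 and 94.9% of the counts but 46.7 and 52.8% of TPM. Lrp1-208, a retained-intron form of 763 nt, held 46.0 and 36.9% of TPM from 926 and 960 counts. With coding transcripts only, Lrp1 was at 96.9 and 148 coding TPM and Lss, which is divided among several forms, at 35.8 and 36.3.

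The counts of the libraries were then compared gene by gene. This is a two-sided exact binomial test of the reads of replicate 2 against replicate 1, with 1 library on each side, scaled by TMM (trimmed mean of M values) factors. It compares these libraries and not conditions. With Benjamini-Hochberg adjustment over 17536 genes, 0 of 31 members passed the rule of a 2-fold difference with adjusted p below 0.05. Of all genes tested, 10.4% passed it (5.5% higher and 4.93% lower in replicate 2), as did 7.3% of the protein-coding genes and 2.76% of the 13681 genes averaging 100 counts or more, which all members exceed. At 1.5-fold, 5 of 31 members were called, against 19.8% of all genes tested and 11.6% of those with at least 100 counts. All 5 were lower in replicate 2, a direction in which 6.35% of genes with at least 100 counts were called. By adjusted p alone, 29 of 31 members differed, 7 higher and 22 lower in replicate 2. However, so did 65.4% of all genes tested and 69.7% of those with at least 100 counts.

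The 5 members called at 1.5-fold include genes of each stretch of the route and a carrier. Fdft1 had 8456 counts in replicate 1 and 5675 in replicate 2, a scaled log2 ratio of -0.85 (counting SE 0.02). Mvd had 2705 and 1844 counts (-0.83, SE 0.04), and Stard4 had 890.0 and 629 (-0.78, SE 0.08). Idi1 had 4610 and 3367 counts (-0.73, SE 0.03), and Msmo1 had 5884 and 4334 (-0.72, SE 0.03). Fdft1 lies on chromosome 14 from 63145150 to 63179578 on the minus strand. The test found adjusted p = 2.82e-265 for Fdft1 by the exact binomial test, and counting error alone enters it.

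The direction was shared across synthesis. All 18 synthesis genes had a scaled log2 ratio below 0, with a median of -0.38 and values from -0.85 for Fdft1 to -0.04 for Dhcr7. Of 12986 protein-coding genes averaging 100 counts or more, 50.9% were below 0, with a median of -0.01 and quartiles of -0.21 and 0.19. Dhcr7 had no detectable difference (adjusted p = 0.451 by the exact binomial test). The direction in single members depended on the scaling. With library totals in place of TMM the median of all genes tested moved to 0.19, and 14 of 18 synthesis genes were below 0, while all 18 stayed below that median. By coding TPM, 14 of 18 were lower in replicate 2 and 17 were below the median of all genes, 0.15. By coding TPM of protein-coding transcripts only, 12 of 18 were lower and all 18 were below the median of 0.15.

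**Figure D3:**
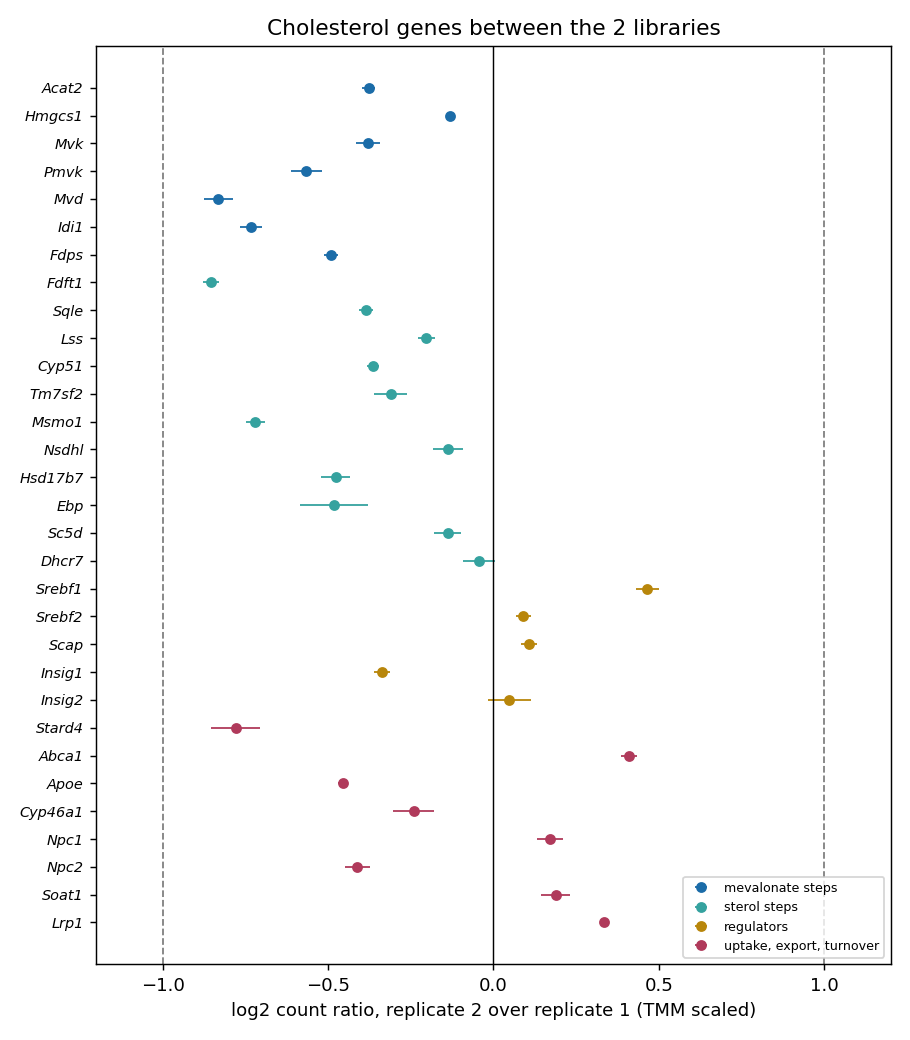
Log2 ratio of scaled counts, replicate 2 over replicate 1, for each member, coloured by role, with bars of 1 counting SE and dashed lines at 2-fold. All 18 synthesis genes lie left of 0, from -0.85 to -0.04, and no member reaches a dashed line.

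The regulators and the uptake, export and turnover genes were divided in direction. Of the regulators, Srebf1 was at 0.46, Scap at 0.11, Srebf2 at 0.09 and Insig2 at 0.05, while Insig1 was at -0.34. Insig2 showed no detectable difference (adjusted p = 0.538 by the exact binomial test). Of the 8 genes of uptake, export and turnover, 4 were above 0: Abca1 at 0.41, Lrp1 at 0.33, Soat1 at 0.19 and Npc1 at 0.17. The other 4 were Stard4 at -0.78, Apoe at -0.46, Npc2 at -0.41 and Cyp46a1 at -0.24. The medians were 0.09 for the regulators and -0.03 for the uptake, export and turnover genes. The difference between these groups and synthesis was not tested.

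Transcript length moved with these ratios. The median log2 ratio of protein-coding genes was -0.33 at effective lengths (transcript length less fragment length) up to 1000 nt and 0.13 above 4000 nt. The 3 members in the shortest class had a median of -0.49, and the 7 members above 4000 nt had a median of 0.17. Between these classes the members lay below the other genes. The 11 members at 1000 to 2000 nt had a median of -0.31, against -0.10 for protein-coding genes. The 6 members at 2000 to 3000 nt were at -0.36 against -0.0005, and the 4 at 3000 to 4000 nt at -0.44 against 0.06. Lrp1 and Abca1 are among these longest members, and Fdps, Pmvk and Apoe are the shortest. With the median of each of 20 length bins removed, 17 of 18 synthesis genes stayed below 0 with a median of -0.34, and Dhcr7 moved to 0.02. Srebf2 moved to -0.03, so 2 of 5 regulators were then below 0.

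**Figure D4:**
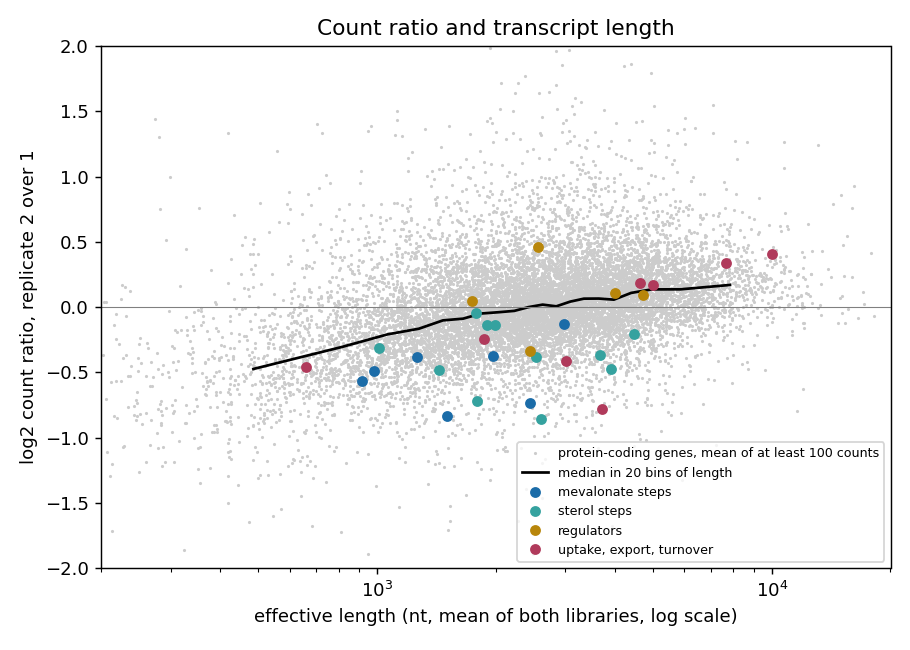
Log2 ratio of scaled counts against effective length (log axis) for protein-coding genes averaging 100 counts or more (grey) and the members (coloured by role), with the median in 20 bins of length as a line. Genes beyond the axis range are not drawn. The line rises from left to right, and most synthesis genes lie below it, while Srebf1 lies above it.

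Markers of other cell types also differed between the libraries. The 4 meningeal fibroblast markers summed to 239 coding TPM in replicate 1 and 704 in replicate 2, and 3 of them were called higher in replicate 2 (Col1a1, Col1a2 and Lum). The 3 erythroid markers summed to 2266 and 1699, with a median log2 ratio of -0.71. The 4 radial glia and astrocyte markers summed to 1987 and 1824 with a median log2 ratio of -0.26. By scaled counts, all 3 neuronal markers were lower in replicate 2 (median log2 ratio -0.22) and all 3 endothelial markers were higher (median 0.27). In coding TPM the neuronal markers summed to 6136 and 5959, but Map2 alone was higher in replicate 2, at 1174 and 1229. The endothelial markers summed to 190 and 240.1. The 4 choroid plexus markers summed to 735 and 474, with Ttr at -0.85, Kl at -0.26, Otx2 at 0.23 and Aqp1 at 0.16. Of the 3 oligodendrocyte precursor markers, which summed to 202 and 174, Olig1 and Olig2 were at -0.50 and Pdgfra at 0.11. Of the 3 oligodendrocyte markers, which summed to 64.3 and 89.4, Cldn11 was at 0.65, Cnp at -0.02, and Mog, a defining gene of myelinating oligodendrocytes, had 0 counts in both libraries. The 3 microglial markers summed to 158 and 168 coding TPM, while their median log2 ratio of scaled counts was -0.11. The part of these differences in the lower counts of the synthesis genes was not tested.

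A list of 32 further genes of the pathway stood lower than the 31 members together and was divided in direction. Their medians were 28.6 and 37.6 coding TPM, and 19 of 32 were above the protein-coding median in both libraries. These medians were above the 25.6 and 31.8 of the 8 uptake, export and turnover members, which were divided in direction as well. The 3 highest by mean were Gramd1a, a sterol carrier at membrane contacts (208 ± 13.1, SD, n = 2), Acat1, the mitochondrial thiolase (172 ± 20.8), and Clu, an apolipoprotein (104 ± 15.1). The lowest was Soat2, the second esterifying enzyme, with 0 and 4 counts. Of the 31 with at least 10 counts, 14 were above 0 and 17 below, with a median log2 ratio of -0.07. Only 1 gene of the list passed the 2-fold test: Nr1h3, a nuclear receptor for oxysterols, had 105 and 52 counts, a log2 ratio of -1.29 (adjusted p = 1.78e-07 by the exact binomial test). The other oxysterol receptor gene of the list, Nr1h2, had 1355 and 1521 counts, a log2 ratio of -0.11.

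Within the gene models used for counting, the estimated uncertainty of read assignment was small for the gene totals of the members. Genes absent from those models do not enter this estimate. The posterior SD of the count was 0 in both libraries for 26 of the 31, and the largest was 18.4 of 4610 counts, for Idi1. In GENCODE vM21, exons of Fdps, Srebf1 and Tm7sf2 overlap another gene on the same strand, so their counts may be shared with that gene. For Srebf1 that gene encodes a microRNA, and the posterior SD of Srebf1 was 0 in both libraries. The counts themselves were made on GENCODE M4.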

How the data were processed

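Expected counts, posterior mean counts, TPM, FPKM, effective lengths and isoform percentages were deposited by the authors for each library separately, on mm10 with GENCODE M4, per the text deposited with the samples. Expected counts are estimates per gene or transcript and need not be whole. The deposited TPM values sum to 1000000 over all features, and the deposited FPKM values are per effective length. The isoform percent gives each transcript as a part of its gene's TPM, per the file headers. Bounds of TPM are the authors', and their level is not stated. Which aligner and quantifier were used is not given in the sources used here.

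Symbols and coordinates came from GENCODE vM21 on the same assembly, and 42462 of 43346 genes (98.0%) matched by identifier. Coding TPM multiplied the deposited TPM by 7.38 and 4.54. Expected counts were rounded, scaled by TMM factors (edgeR 4.0.16, R 4.3.3) over genes averaging 10 counts or more, and tested per gene by an exact binomial test, two-sided, with Benjamini-Hochberg adjustment. Ratios had 0.5 added to each count. DESeq2 1.42.0 gave alternative size factors. Tests were run in Python 3.11.15 with scipy 1.17.1. The binomial test was tried on simulated counts that held counting error alone, with no further spread between libraries. With 1 library a side, no edgeR quasi-likelihood test has residual degrees of freedom. Promoters are RefSeq's, and protein sequences were not analysed here. All 31 members are named. Of the further pathway genes, the 3 highest, the lowest and those called are named, with Nr1h2 added after its values were seen. Members and lists were chosen with earlier results of these data known. Protein-coding transcripts only, a common effective length and the directions by setting were added after seeing the data.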

Additional observations from a re-analysis of the deposited data

How the results depend on the processing

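The higher synthesis median (1.55 on the log2 scale) ranged from 1.21 to 1.88 when each library was left out, and was 0.84 and 0.82 as a difference of mean log2(coding TPM + 0.1) and of mean log2(coding TPM + 1). The cause was not tested. No member was called at 2-fold under any setting run, and 5 were called at 1.5-fold. The genes called, 1830 of all tested, numbered 2752 with no filter, 380 at a filter of 100 counts, 3472 at 1.5-fold and 1108 over protein-coding genes only, settings that change the genes tested or the threshold. Of the 1830, 965 were higher in replicate 2 and 865 lower, against 1310 and 654 with library totals and 1076 and 673 with the length trend removed. With library totals the log2 ratio turned positive for Hmgcs1 (0.065), Nsdhl (0.058), Sc5d (0.057) and Dhcr7 (0.15). With the length trend removed it turned for Dhcr7 (0.019) and Srebf2 (-0.034). Removing the common shift between libraries is the construction of TMM. The log2 ratio of Srebf2 over Srebf1 (0.39) was 0.33 with posterior means and 0.93 over protein-coding transcripts only, that of Cyp46a1 over Soat1 (0.35) was 0.23 and 0.78, and that of Abca1 over Apoe (-5.28) was -4.10 over protein-coding transcripts only, which leave out noncoding forms. No paired analysis was possible because there is 1 group. With n = 2, leaving out a library moves a mean by less than 1 SD by construction, and a count of 0 allows up to 3 counts.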
